A study of Carassius auratus with 6 samples.

Results

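T-box transcription factors are DNA-binding proteins that share a conserved domain, the T-box, through which they recognise a short DNA element. They set up cell identities and body regions in the embryo, some as activators and some as repressors, and a few of them act again in adult tissues. In skin the best known member is Tbx15: in mice that lack it (the droopy ear mutant) the boundary between dark back and pale belly coat moves upwards, and the gene acts in the dermis rather than in pigment cells. The members were all gene rows of the deposited table whose product name opens with T-box transcription factor, T-box protein, T-box-containing protein or eomesodermin. They numbered 38 of 83088 rows, under 14 T-box gene names, and came from a genome that is duplicated in this fish, so most names stand on several rows.

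The fish was *Carassius auratus*, the golden-back crucian carp, which is a natural colour mutant whose body carries golden and greenish grey skin, and mRNA of its skin was sequenced. There were 6 libraries of female fish, 3 of golden and 3 of greenish grey skin (called grey below), each numbered 1 to 3 in the labels. RNA was extracted with an Rneasy mini plus kit, 1.3 ug of total RNA went into each library, and libraries were made with the SMARTER mRNA-Seq kit. The age of these fish, the body region of each skin piece and whether a library was 1 fish or a pool are not given for these libraries. Golden skin can thus be compared with grey skin only as labelled. The paper describes the golden skin of this fish as lying on the back, so colour and position on the body cannot be told apart here. The labels do not say that replicates are separate fish, and p-values then measure the spread between these libraries alone. The deposited values are counts of reads per gene and FPKM (fragments scaled by gene length and library size), and FPKM is used wherever levels of different genes are set side by side. Total counts ranged from 51493103 to 67595616 per library.

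All marker lists of skin were detected. Keratin and plakin rows of the epidermis held 0.410 to 2.61% of all counts in the golden and 0.809 to 2.30% in the grey libraries. Markers of skeletal muscle, with 91 of 100 rows detected, held 2.85 to 11.4% in golden and 1.31 to 7.52% in grey, most of all in golden library 1. The pigment genes of melanophores, with 18 of 19 rows detected, held 0.00195 to 0.00239% in golden and 0.00725 to 0.0202% in grey, and the 2 ranges did not overlap. None of the marker genes on these lists was at 0 throughout. In such bulk RNA, fewer cells of a type and less RNA per cell cannot be told apart.

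Of the 38 rows, 27 had a count in at least 1 library and 19 had a count in all 6 libraries. At least 10 counts on average were reached by 22 rows, and at least 1 FPKM by 8. The 11 rows at 0 in every library covered 4 T-box names in full. These were tbx5, the fore limb and pectoral fin gene, on 4 rows, and tbx6, tbx22 and a TBXT-like row, whose RefSeq symbol is tbx19, on 1 row each. Tbx6 acts in the presomitic mesoderm, Tbx22 in the palate and Tbx19 in the pituitary of mice. The remaining empty rows were 1 copy of tbx1, 2 of tbx6l, among them the row that RefSeq calls tbx16, and a non-coding RNA described as tbx21. That RNA lies on the opposite strand of tbx21 on chromosome 12 and overlaps it by 587 bp.

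The levels of the detected genes spanned a wide range on the FPKM scale. Summed over its 3 rows, tbx15 stood first, at 69.1, 6.77 and 30.6 FPKM in golden libraries 1, 2 and 3 and at 17.8, 16.6 and 12.5 FPKM in the grey ones. It made up 25.9 to 72.0% of the summed T-box FPKM of a golden library and 35.7 to 46.2% of that of a grey library. Golden library 2 had the lowest tbx15 level of all 6 and golden library 1 the highest.

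Next came tbx2b, a repressor of the Tbx2/3 branch, at 4.90 to 13.6 FPKM, and tbx1, the pharyngeal regulator, at 2.68 to 8.96 FPKM. Eomesodermin, which with tbx21 directs T and natural killer lymphocytes, was at 1.32 to 3.57 FPKM over its 4 rows. The tbx3 rows summed to 1.52 to 3.55 FPKM, tbx21 to 0.402 to 1.60, tbx6l to 0.343 to 2.20 and tbx18 to 0.0571 to 1.95. The last were tbx20, a heart regulator, at 0 to 0.264 FPKM, and tbx4, the hind limb and pelvic fin gene, at 0 to 0.163 FPKM. From tbx2b down to tbx18, the ranges of neighbouring genes in this order overlapped, and so did those of tbx20 and tbx4. The range of tbx15 also overlapped that of tbx2b, through golden library 2 and grey library 3, whereas those of tbx18 and tbx20 overlapped only through tbx18 in the grey libraries.

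**Figure D1:**
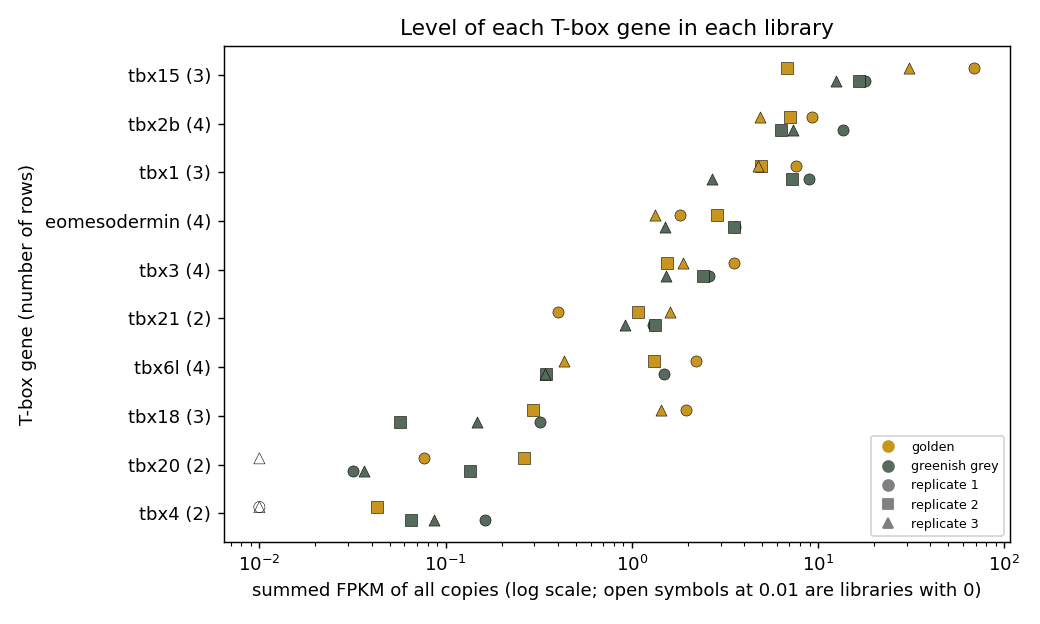
Summed FPKM of all rows of each detected T-box gene (log axis) in the 3 golden and 3 greenish grey libraries, with 1 symbol per library and its shape giving the replicate number. tbx15 leads in 5 of the 6 libraries and is spread over 6.77 to 69.1 FPKM in golden skin, and tbx18 lies higher in golden than in grey skin at each replicate number.

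Golden and grey skin were compared gene by gene with edgeR's quasi-likelihood test, with p-values adjusted by the Benjamini-Hochberg method. A row counted as called when it differed by more than 2-fold at an unadjusted p under 0.05, since no gene reached an adjusted p under 0.05 (0 of 26421 genes of at least 1 FPKM, or 0.0%). Without adjustment, 1163 of these genes (4.40%) had p under 0.05, and DESeq2 gave 205 genes (0.776%) an adjusted p under 0.05. Among the 8 T-box rows of at least 1 FPKM, 0 were called, where 2.77% of all genes were, and 0 had an unadjusted p under 0.05. DESeq2 gave none of the 8 an adjusted p under 0.05. Their median log2 fold change (golden over grey) was 0.22, with 5 rows higher and 3 lower, against a median of 0.03 over all genes. LOC113082480 of tbx2b, among the 3 lower, reached 1 FPKM on average only through the grey libraries. These counts and this median thus say nothing of the T-box rows as a set.

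Lower rows entered a second fit of all 41241 genes with at least 10 counts on average, of which 3.21% were called, 1.45% as higher in golden. Of 22 T-box rows in it, 3 were called, all higher in golden skin, and these were the 3 rows of tbx18. Of these, LOC113065839 and LOC113077674 reached 10 counts on average only through the golden libraries, the group where they were high, so this count and the median below say nothing of the T-box rows as a set. All 3 are under 1 FPKM on average, so they were not in the fit of genes of at least 1 FPKM. The median log2 fold change of the 22 rows was 0.24, against 0.02 over all genes, with 13 rows higher and 9 lower. The edgeR adjusted p rounded to 1 for every T-box row, so the p-values below are unadjusted unless named otherwise. In edgeR 3 of the 22 rows, those of tbx18, had an unadjusted p under 0.05, against 1777 of all 41241 genes. DESeq2 gave 1 row, LOC113065839 of tbx18, an adjusted p of 0.017, where 0.800% of all genes had one under 0.05. Both counts hold rows that entered only through the golden libraries, so they say nothing of the T-box rows as a set. Values of golden and grey libraries did not overlap for 2 of the 22 rows, against 10.2% of all genes. These were LOC113065839 and LOC113077674, so this count too says nothing of the T-box rows as a set.

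The replicate numbers of the 2 colours went together (the correlations are given with the processing), and a fit with the replicate number as a block called 4 of the 22 rows, against 5.26% of all genes. Golden was above grey within all 3 numbered pairs for 6 rows, against 17.8% of all genes, and below it within all 3 for 3 rows, against 19.1%. The 6 were the rows of tbx18, 2 rows of tbx6l and 1 row of eomesodermin. LOC113065839 and LOC113077674, which entered only through the golden libraries, are among these 6 and among the 4 called with the block. Neither count thus says anything of the T-box rows as a set. The 3 rows with golden below grey were 2 of eomesodermin and 1 of tbx3.

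Tbx18 is a repressor that acts beside its close relative Tbx15 in the developing mouse limb, and it marks pericytes and vascular smooth muscle in adult mice. The row on chromosome 23 (14140463 to 14150265, minus strand, LOC113041418, tbx18 in RefSeq) was at 1.48, 0.168 and 1.06 FPKM in golden libraries 1 to 3 and at 0.323, 0.0571 and 0.130 FPKM in grey libraries 1 to 3. Golden libraries 1 and 3 were above all grey ones, while golden library 2 was below grey library 1, so the groups overlapped. The log2 fold change was 2.57 ± 1.03 (SE; edgeR, unadjusted p = 0.041). Within numbers 1, 2 and 3 golden was above grey by 2.47, 1.5 and 2.89 on the log2 scale, and with the block its unadjusted p was 0.002. Without golden library 1 the log2 fold change was 1.71 (edgeR, unadjusted p = 0.137), and without grey library 1 it was 3.52 (edgeR, unadjusted p = 0.021). It was 2.64, 2.15 and 2.36 without golden library 3, grey library 2 and grey library 3, with unadjusted p of 0.063, 0.109 and 0.110 in edgeR.

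The second row, on an unplaced sequence (79787 to 89468, LOC113077674), had 49, 13 and 62 counts in golden and 0, 0 and 4 counts in grey libraries 1 to 3. Every golden library was above every grey one. The fitted log2 fold change was 5.17 ± 1.59 (SE; edgeR, unadjusted p = 0.015). It rests on the 4 counts of grey library 3, without which all remaining grey libraries are at 0 and the fitted value is 8.46.

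The row on chromosome 48 (10618631 to 10628009, minus strand, LOC113065839) had 34, 12 and 26 counts in golden and 0 counts in each grey library. Against a floor of 3 counts per grey library, golden skin stood at least 9.75-fold higher (edgeR, unadjusted p = 0.007). This is the row with an adjusted p under 0.05 in DESeq2.

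With the counts of the 3 rows summed, which sets aside how reads were divided among copies, the log2 fold change of tbx18 was 3.0 ± 0.96 (SE; edgeR, unadjusted p = 0.017). The FPKM of the 3 rows summed to 1.95, 0.295 and 1.43 in golden and to 0.323, 0.0571 and 0.146 in grey libraries 1 to 3, and golden library 2 was again below grey library 1. Tbx18 was a low gene in both colours, with 52, 12 and 31 counts in all in the grey libraries.

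Markers of mural cells, the cell type that Tbx18 marks in mice, were not higher in golden skin. This list, with 28 of 29 rows detected and none of its 7 genes at 0 throughout, held 0.0244 to 0.0385% of counts in golden and 0.0380 to 0.0446% in grey libraries (exact two-sided permutation test, p = 0.2, n = 3 per colour, where 0.1 is the smallest p possible). Endothelial markers, with all 10 rows detected, held 0.00986 to 0.0121% in golden and 0.0168 to 0.0207% in grey, without overlap. Type I collagen and other fibroblast markers, with 29 of 30 rows detected, held 0.124 to 0.340% in golden and 0.192 to 0.898% in grey. The part of muscle and of the other markers in the tbx18 values was not tested.

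**Figure D2:**
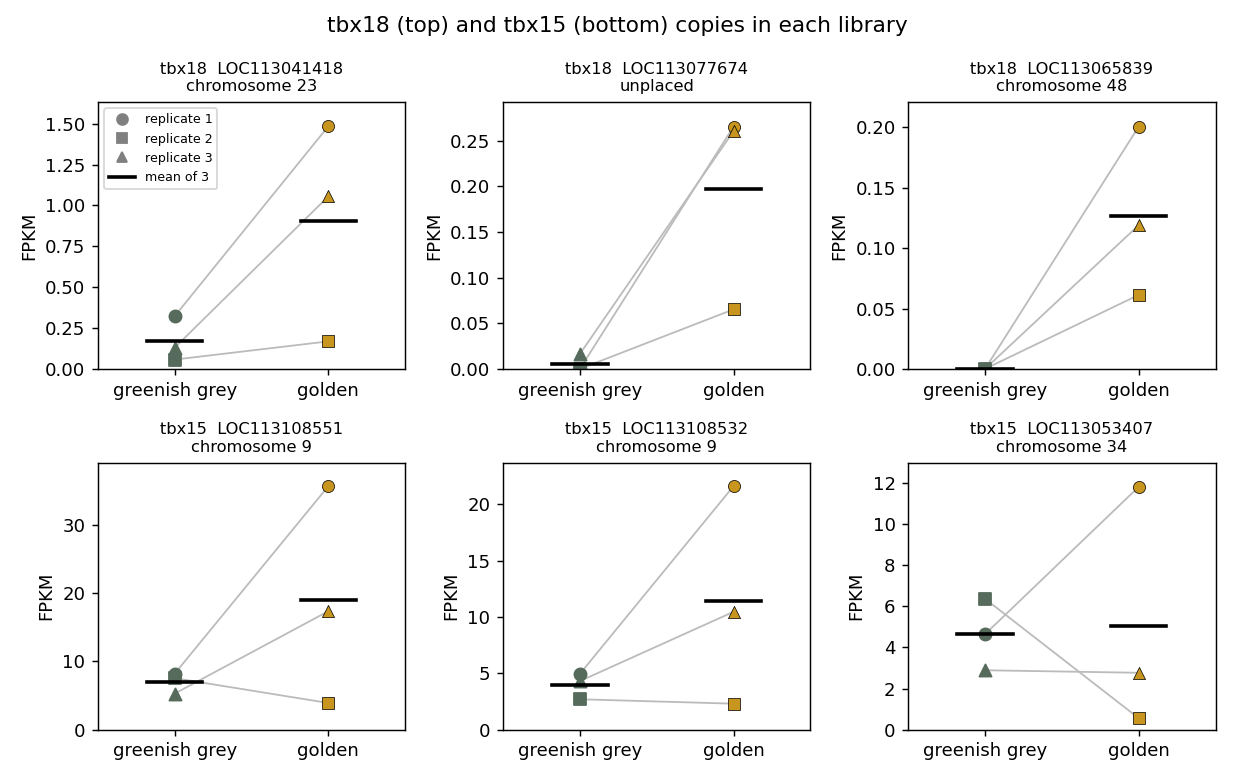
FPKM of the 3 rows of tbx18 (top) and the 3 rows of tbx15 (bottom) in grey and golden libraries, with thin lines joining libraries of the same replicate number and black bars at the mean of 3 libraries. All 3 tbx18 rows are higher in golden skin at every number, whereas tbx15 is higher at numbers 1 and 3 on chromosome 9 and lower at number 2.

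Tbx15 has 2 rows on chromosome 9, on opposite strands and 756065 bp apart, and 1 row on chromosome 34. The minus-strand row (17622558 to 17642915, LOC113108551) was at 35.7, 3.90 and 17.3 FPKM in golden libraries 1 to 3 and at 8.20, 7.54 and 5.28 FPKM in grey libraries 1 to 3. Golden library 2 was the lowest of all 6 and the other golden libraries were the highest. Its log2 fold change was 1.70 ± 0.84 (SE; edgeR, unadjusted p = 0.085). It was 2.18 without golden library 2 (edgeR, unadjusted p = 0.011) and 0.48 without golden library 1 (edgeR, unadjusted p = 0.439).

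The plus-strand row (16846541 to 16866492, LOC113108532) was at 21.6, 2.31 and 10.5 FPKM in golden and at 4.95, 2.70 and 4.31 FPKM in grey libraries 1 to 3. Its libraries stood in a like order, with golden library 2 again the lowest. Golden differed from grey by a log2 fold change of 1.79 ± 0.85 (SE; edgeR, unadjusted p = 0.077). With the replicate block, under which 5.05% of all genes were called, it was 1.22 with an unadjusted p of 0.049 and was called. It was 2.27 without golden library 2 (edgeR, unadjusted p = 0.0095) and 0.57 without golden library 1 (edgeR, unadjusted p = 0.384). In DESeq2 it was 1.79 with an unadjusted p of 0.032. Without a filter it was 1.79 (edgeR, unadjusted p = 0.048) and was called, against 3.19% of all genes.

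The chromosome 34 row (17474786 to 17493461, LOC113053407) was at 11.8, 0.559 and 2.77 FPKM in golden and at 4.64, 6.37 and 2.89 FPKM in grey libraries 1 to 3. Golden library 1 was the highest and the other golden libraries were below every grey one. In edgeR the log2 fold change was 0.48 ± 1.07 (SE; edgeR, unadjusted p = 0.668), and without golden library 1 it was -1.59. Summed over the 3 rows, tbx15 had a log2 fold change of 1.39 ± 0.85 (SE; edgeR, unadjusted p = 0.149).

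The summed level of tbx15 can also be given by row. The chromosome 34 row made up 8.27 to 17.1% of the tbx15 FPKM in golden and 23.2 to 38.3% in grey libraries, and the minus-strand row of chromosome 9 made up 51.6 to 57.6% in golden and 42.3 to 46.1% in grey. Neither pair of ranges overlapped. This comparison was chosen after the values were seen, and no share over other genes with several copies stands beside it. Shares of 1 gene sum to 100% and are not independent of each other, and reads of near-identical copies may have been divided in ways the sources used here do not give.

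**Figure D3:**
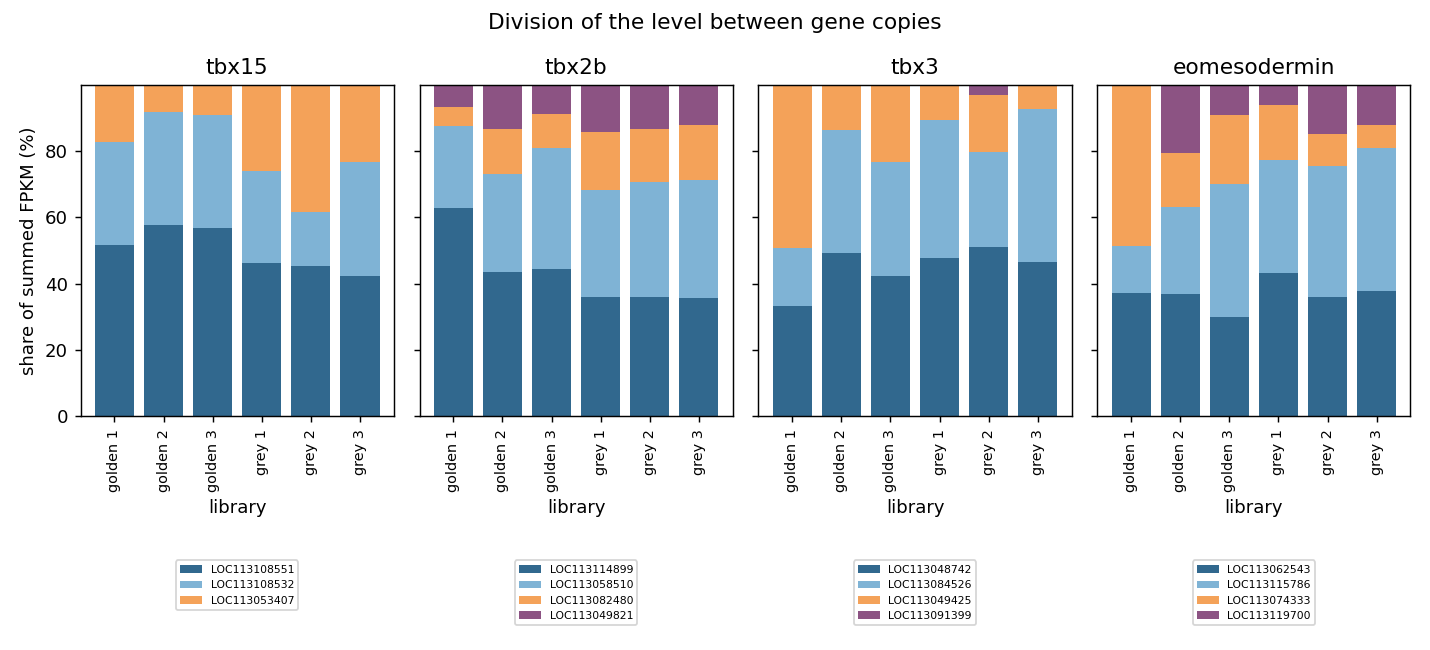
Share (%) of the summed FPKM of tbx15, tbx2b, tbx3 and eomesodermin held by each of its rows, 1 bar per library. The chromosome 34 row of tbx15 (LOC113053407) takes 8.27 to 17.1% in golden and 23.2 to 38.3% in grey libraries, and golden library 1 stands out by LOC113049425 of tbx3 and LOC113074333 of eomesodermin.

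Of the remaining Tbx1 branch, tbx1 itself (chromosome 5, 4445251 to 4456186) was at 7.15, 4.68 and 4.02 FPKM in golden and at 8.52, 6.62 and 2.18 FPKM in grey libraries 1 to 3. The groups overlapped fully, with the highest and the lowest library both grey. The log2 fold change was 0.04 ± 0.63 (SE; edgeR, unadjusted p = 0.950), and its sign turned without golden library 1 (-0.45) or grey library 3 (-0.37). The copy on chromosome 30 held 4.78 to 18.6% of the tbx1 FPKM in any library. The 2 rows of tbx20 had 0 to 26 counts per library.

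Tbx2 and Tbx3 are repressors in limb, heart and mammary development, and Tbx2 was described in mouse and human melanocytes as a repressor of pigment cell genes. The 4 rows of tbx2b lie on chromosomes 5, 30, 15 and 40. On chromosome 15 the row (7231336 to 7237801, LOC113114899) was at 5.83, 3.07 and 2.18 FPKM in golden and at 4.90, 2.27 and 2.60 FPKM in grey libraries 1 to 3. The groups overlapped fully. The fitted log2 difference was 0.39 ± 0.63 (SE; edgeR, unadjusted p = 0.553), and it was -0.33 without golden library 1.

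On chromosome 40 the row (9560823 to 9568450, LOC113058510) was at 2.32, 2.10 and 1.79 FPKM in golden and at 4.39, 2.18 and 2.58 FPKM in grey libraries 1 to 3. Golden library 1 lay among the grey values. The log2 fold change was -0.42 ± 0.45 (SE; edgeR, unadjusted p = 0.382), and it was 0.06 without grey library 1.

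On chromosome 5 the row (24238301 to 24245833, LOC113082480) was at 0.508, 0.955 and 0.494 FPKM in golden and at 2.35, 1.02 and 1.21 FPKM in grey libraries 1 to 3. In FPKM every golden library was below every grey one, but in counts scaled by edgeR's factors golden library 2 was above grey library 2. This row averaged 0.652 FPKM in golden and 1.52 FPKM in grey libraries, so it reached 1 FPKM on average only through the grey ones. Its log2 fold change was -1.13 ± 0.53 (SE; edgeR, unadjusted p = 0.074). With counts scaled by library size alone it was -1.22 (edgeR, unadjusted p = 0.042), which passes the call, but no share over all genes is given for that scaling. Without grey library 1 it was -0.53 (edgeR, unadjusted p = 0.316). The row on chromosome 30 (LOC113049821) had a log2 fold change of -0.72 ± 0.55 (SE; edgeR, unadjusted p = 0.235). Within tbx2b the chromosome 15 row took 43.5 to 62.8% of the FPKM in golden and 35.8 to 36.1% in grey libraries, and the chromosome 5 row took 5.47 to 13.5% in golden and 16.1 to 17.3% in grey. Of 21 such shares compared over the T-box genes, 4 were higher and 3 lower in golden without overlap. LOC113065839 and LOC113077674 of tbx18, which entered only through the golden libraries, are among the 4. The share of LOC113041418, which falls as theirs rise, is among the 3. These counts thus say nothing of the T-box rows as a set. The limits given for the tbx15 shares hold here too.

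Melanophore markers stood lower in golden skin as given above, with a ratio of golden to grey means of 0.160 (exact two-sided permutation test, p = 0.1, n = 3 per colour, the smallest p possible). The part of melanophores in the tbx2b values was not tested.

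The tbx3 rows on chromosomes 30 and 5 (LOC113048742 and LOC113084526) were the steadiest of the T-box rows, with a highest library at 1.74 and 1.89 times the lowest in FPKM. A median of 4.76 times was found over the 19 rows with a count in all libraries, and the largest ratio, 32.8 times, belonged to a tbx6l row (LOC113078504). Their log2 fold changes were -0.00 ± 0.47 and -0.28 ± 0.40 (SE). The other tbx3 row on chromosome 30 (LOC113049425, tbx3b in RefSeq) was at 1.76, 0.212 and 0.436 FPKM in golden and at 0.270, 0.418 and 0.110 FPKM in grey libraries 1 to 3. Golden library 1 stood far above the rest and golden library 2 was below 2 grey libraries. Its log2 fold change was 1.92 ± 1.01 (SE; edgeR, unadjusted p = 0.101).

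Tbx4 and Tbx5 are neighbours of Tbx2 and Tbx3 in vertebrate genomes, and the order was found here too. On chromosome 40 a tbx4 row starts 14224 bp after the end of tbx2b, and on chromosome 15 another starts 9651 bp after it. A tbx5 row lies 12244 bp from tbx3 on chromosome 30 and 63212 bp from tbx3 on chromosome 5. All 4 tbx5 rows were at 0 in all libraries although the adjoining tbx3 rows were detected in all of them, at 0.574 to 1.23 FPKM. The chromosome 40 row of tbx4 (9582675 to 9598566, LOC113058518) had 0 counts in each golden library and 4, 17 and 16 counts in grey libraries 1 to 3. Golden skin stood at least 3.19-fold lower against the floor of 3 counts per library, and in a fit of every gene with a count, 3.19% of which were called, it passed 2-fold with an unadjusted p of 0.029 (edgeR). It is named outside the rule for named rows, after its values were seen. The chromosome 15 row had 0, 8 and 0 counts in golden and 23, 0 and 6 counts in grey libraries 1 to 3, and the 2 rows summed had a log2 fold change of -2.85 ± 1.72 (SE; edgeR, unadjusted p = 0.144).

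**Figure D4:**
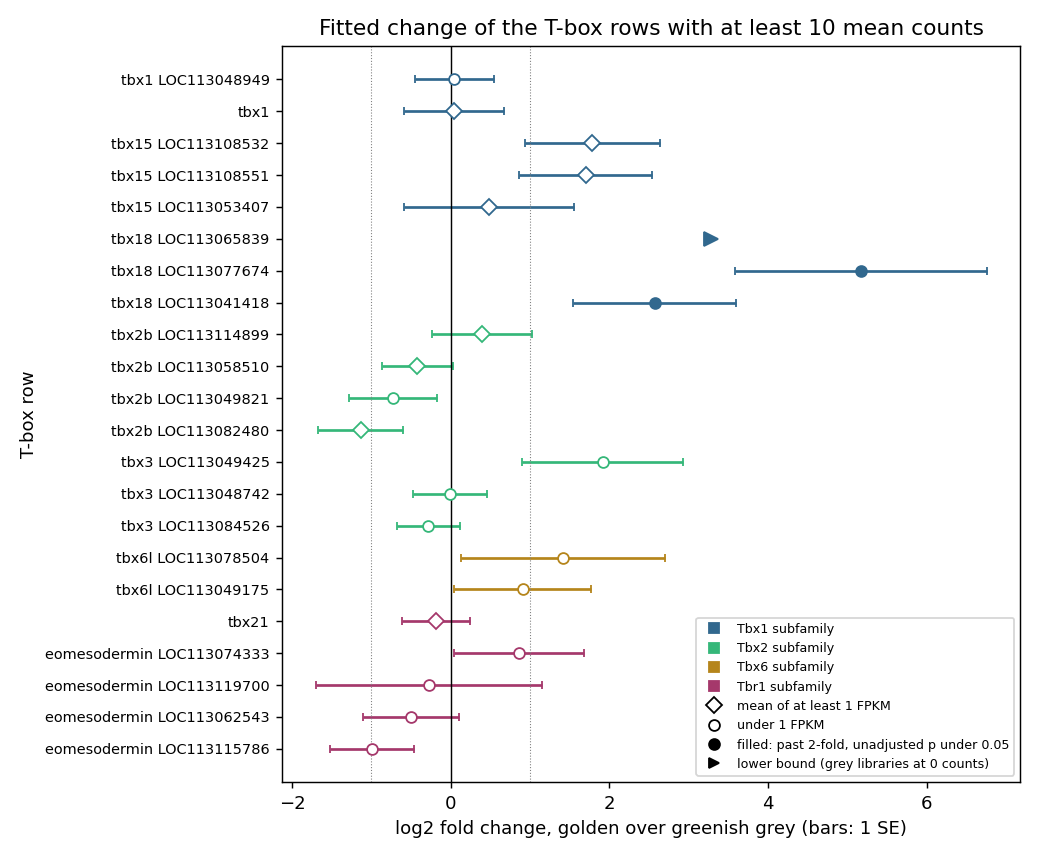
Log2 fold change of golden over grey (edgeR) with bars of 1 SE for the 22 T-box rows with at least 10 counts on average, coloured by subfamily, where filled symbols mark called rows (a difference over 2-fold with unadjusted p under 0.05). The 3 filled symbols are the rows of tbx18, the one on chromosome 48 drawn as a lower bound of 9.75-fold because all grey libraries had 0 counts.

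Tbx6-like genes act in mesoderm formation of fish embryos. The detected rows, on chromosome 30 (LOC113049175) and chromosome 5 (LOC113078504), had log2 fold changes of 0.91 ± 0.87 and 1.42 ± 1.28 (SE; edgeR, unadjusted p = 0.329 and 0.307). Golden was above grey within all 3 numbered pairs for both, by 0.79, 1.42 and 0.40 for the first and by 1.0, 3.86 and 0.12 for the second on the log2 scale. The libraries numbered 1 were high in both colours, so the groups overlapped.

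The lymphocyte regulators were low and did not pass the test. Tbx21 (T-bet, chromosome 12, 2785162 to 2800646), the regulator of type 1 helper T cells, was at 0.402, 1.08 and 1.60 FPKM in golden and at 1.30, 1.33 and 0.923 FPKM in grey libraries 1 to 3. Golden library 1 was the lowest and golden library 3 the highest. The difference was a log2 fold change of -0.18 ± 0.43 (SE; edgeR, unadjusted p = 0.683), and it was 0.13 without golden library 1.

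The 4 rows of eomesodermin did not move together. Those on chromosomes 44 and 16 (LOC113062543 and LOC113115786, eomesb in RefSeq) had log2 fold changes of -0.50 ± 0.61 and -0.99 ± 0.53 (SE; edgeR, unadjusted p = 0.441 and 0.104), with golden below grey within all 3 numbered pairs. The unplaced row (LOC113074333) had a log2 fold change of 0.87 ± 0.82 (SE; edgeR, unadjusted p = 0.326), with golden above grey within all 3, and with the block its unadjusted p was 0.028 at 0.94, under 2-fold. The row on chromosome 19 (eomesa) had 0, 101 and 25 counts in golden and 34, 101 and 36 counts in grey libraries 1 to 3. Markers of T and natural killer cells, with 47 of 62 rows detected, held 0.00151 to 0.00389% of counts in golden and 0.00335 to 0.00617% in grey libraries, and their part in these values was not tested.

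Libraries were also ranked by counts scaled by edgeR's factors. Among the 22 rows, golden library 1 was then the highest for 13. Of all genes of at least 10 counts, 22.4% were highest in it. The 13 include LOC113065839 and LOC113077674, which entered only through the golden libraries, so this count says nothing of the T-box rows as a set. Grey library 1 was the highest for the next 6 rows, against 17.8% of all genes, and grey libraries 2 and 3 for none. In FPKM, tbx1 was highest in grey library 1 instead. LOC113048742 of tbx3 and LOC113115786 of eomesodermin were highest in grey library 2 in FPKM. Golden library 1 also had the largest share of skeletal muscle markers, 11.4%, and the smallest scaling factor, 0.751 in the fit of genes of at least 1 FPKM against 0.916 to 1.15 in the other libraries. The part of this library's makeup in the T-box values was not tested.

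Of 13 further rows of the T-box family that carry other product names, 6 were MGA, which carries a T-box and a helix-loop-helix domain, 4 were T-box brain protein 1 and 3 were brachyury. Summed over its rows, MGA was at 8.80, 9.69 and 10.9 FPKM in golden and at 9.84, 9.55 and 10.4 FPKM in grey libraries 1 to 3. It varied less between libraries than any of the T-box genes above and was exceeded only by tbx15 in its mean. The 5 detected MGA rows had log2 fold changes from -0.16 to 0.40. The 3 rows of brachyury, the founding member of the family, were at 0. The tbr1a row (LOC113055024) had 13, 12 and 4 counts in golden and 0 counts in each grey library, at least 4.13-fold higher against the floor. It averaged under 10 counts and was in neither fit. Other tbr1 rows did not show this. The tbr1b row had 24, 99 and 0 counts in golden and 16, 49 and 0 counts in grey libraries 1 to 3. LOC113110958 had 0, 0 and 23 counts in golden and 0, 19 and 8 counts in grey, and the remaining tbr1 row was at 0.

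The genes around these factors were read from 5 lists, in which no row matched twist1, lmx1b, tle2, hand1 or ifng by product name. The fin field list holds genes of fin and limb outgrowth, which tbx4 and tbx5 start. Of its 10 rows of at least 1 FPKM, 1 was called lower in golden and 0 higher, where 1.51% and 1.26% of all genes were called lower and higher, and the median log2 fold change was -0.63, with all 10 rows lower. These rows are copies of only 2 genes, meis1 and prrx1. Over the 22 rows of the list with at least 10 counts on average, 8 were higher and 14 lower, with a median of -0.29. The called row was a meis1-like homeobox gene on chromosome 26 (LOC113043994), at 0.596, 1.15 and 1.77 FPKM in golden and at 3.6, 2.39 and 2.77 FPKM in grey libraries 1 to 3. All golden libraries were below all grey ones, with a log2 fold change of -1.28 ± 0.39 (SE; edgeR, unadjusted p = 0.016). Among the 22 rows 1 more was called, higher in golden, where 1.45% of all genes of at least 10 counts were called higher and 3.21% in either direction. That row reached 10 counts on average only through the golden libraries, so this count says nothing of the list as a set.

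The row called higher was hand2, a regulator of the posterior limb bud and the heart, on an unplaced sequence (LOC113095039). It was at 1.31, 0.377 and 1.07 FPKM in golden and at 0.125, 0 and 0 FPKM in grey libraries 1 to 3. Golden libraries 1 and 3 were the highest, golden library 2 came next, and the groups did not overlap. The log2 fold change was 4.50 ± 1.69 (SE; edgeR, unadjusted p = 0.033). A second hand2 row, on chromosome 1 (LOC113112477), was at 0.761, 0 and 0.429 FPKM in golden and at 0.043, 0 and 0 FPKM in grey libraries 1 to 3, and it was called only with the block (unadjusted p = 0.034).

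The dorsoventral list holds genes that mark back and belly, among them agouti-signaling protein, the pigment switch that is expressed ventrally in fish and mice, and engrailed-1, which marks ventral limb ectoderm. Of 10 rows of at least 1 FPKM, 1 was called higher and 3 lower in golden, against 1.26% and 1.51% of all genes, and among 19 rows with at least 10 counts on average 1 was called higher and 4 lower, against 3.21% of all genes called in either direction. These genes were known from earlier results of the data and are no independent evidence. Also, every row called among the 10 reached 1 FPKM on average only through the colour where it was high. The row called higher among the 19 reached 10 counts on average only through the golden libraries. The counts of called rows thus say nothing of the list as a set.

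The agouti row higher in golden, on chromosome 31 (LOC113050259), was at 2.92, 1.37 and 4.05 FPKM in golden and at 0, 0.048 and 0 FPKM in grey libraries 1 to 3. The one lower in golden, on chromosome 27 (LOC113046021), was at 0, 0.164 and 0.692 FPKM in golden and at 4.50, 2.11 and 3.84 FPKM in grey libraries 1 to 3. Neither row's groups overlapped, and the directions were opposite. The row on chromosome 2 (LOC113038505), at 1.39, 1.10 and 0.536 FPKM in golden and at 11.1, 1.94 and 2.18 FPKM in grey libraries 1 to 3, was called lower in the fit of lower genes and with the block (unadjusted p = 0.008), and had an unadjusted p of 0.052 otherwise. A zic4-like row on an unplaced sequence (LOC113082452), at 0.612, 0.559 and 0.539 FPKM in golden and at 0.207, 0.041 and 0.358 FPKM in grey libraries 1 to 3, was called higher only with the block (edgeR, unadjusted p = 0.042).

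Engrailed-1 was lower in golden on chromosomes 26 (en1b, LOC113044568) and 1 (LOC113105207), with log2 fold changes of -3.96 ± 0.58 and -3.65 ± 0.39 (SE; edgeR, adjusted p = 0.764 and 0.305). The first was at 0.171, 0.074 and 0.180 FPKM in golden and at 1.45, 3.55 and 2.71 FPKM in grey libraries 1 to 3. The second was at 0.218, 0.159 and 0.181 FPKM in golden and at 2.26, 3.02 and 2.89 FPKM in grey libraries 1 to 3. These engrailed-1 rows and the agouti rows of chromosomes 31 and 27 had golden library 2 on the same side as the other golden libraries. They were named because they were called, and entered only through the colour where they were high. That agreement was thus built in and sets up no contrast with tbx15.

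**Figure D5:**
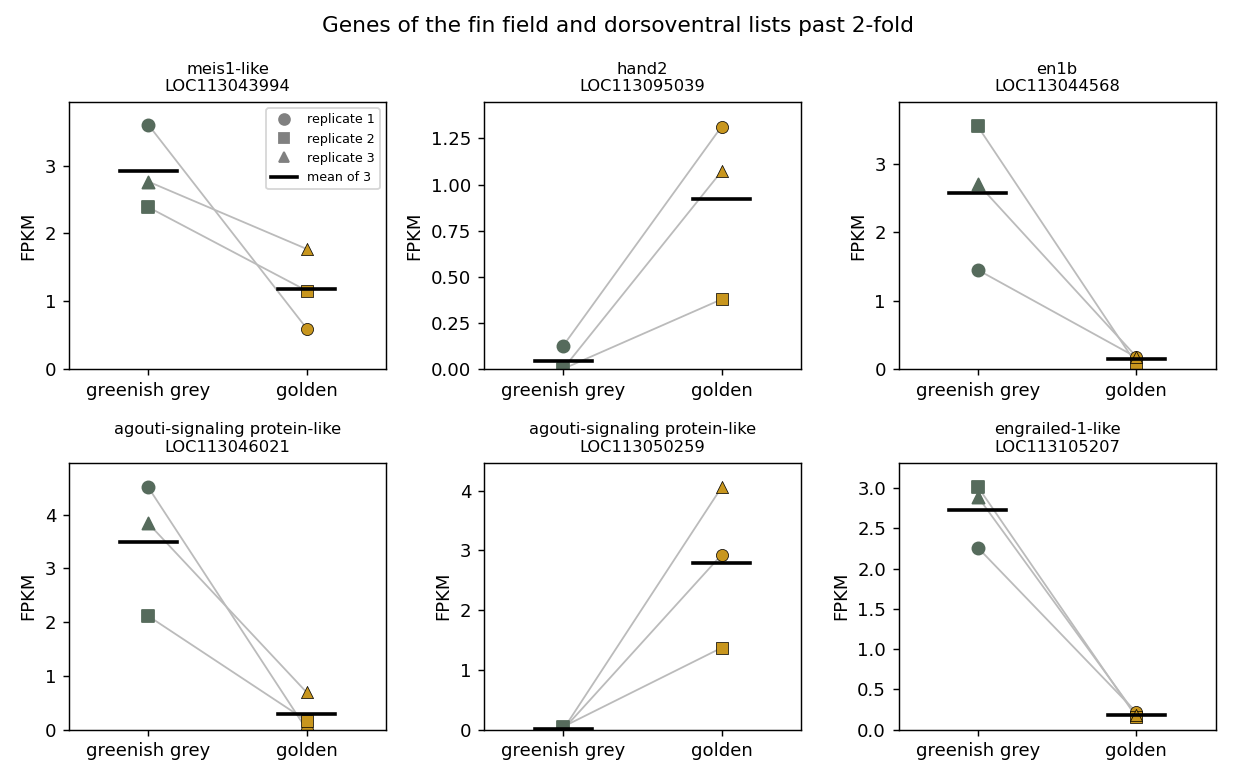
FPKM in grey and golden libraries of the called rows of the fin field and dorsoventral lists, with thin lines joining the same replicate number and black bars at the mean of 3 libraries. hand2 and the agouti row of chromosome 31 are higher and the meis1-like, engrailed-1 and chromosome 27 agouti rows lower in golden skin at every number.

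The remaining lists held no called row. The TLE proteins, corepressors that Tbx15, Tbx18 and Tbx20 recruit, were detected on 11 of 11 rows, and of their 9 rows of at least 1 FPKM 5 were higher and 4 lower, with a median log2 fold change of 0.05. The heart partners of tbx5 and tbx20 were mostly silent. Only gata6 and mef2c had counts, and nkx2-5, gata4 and gata5 were at 0 on all rows. The 4 tested rows were all copies of mef2c, which skeletal muscle also expresses. All were higher in golden, with a median of 0.85 against 0.03 over all genes. With the block alone, LOC113054619 was called (edgeR, unadjusted p = 0.009), where 5.05% of all genes were. Of the lymphocyte list, 41 of 71 rows were tested, and 11 were higher and 30 lower in golden. Their median was -0.55, against 0.02 over all genes of at least 10 counts. With the block, a perforin row and a cd4 row of this list were called lower (edgeR, unadjusted p = 0.037 and 0.031). These were 2 of 41 rows, where 5.26% of all genes were called.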

How the data were processed

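Skin mRNA was measured in 3 golden and 3 greenish grey libraries, grouped and numbered by their titles. The authors deposited 1 table with a raw read count and an FPKM value per gene row and library. Deposited counts were not normalized, and the authors' FPKM values were taken as given, except that 0.0001 FPKM, which stood wherever the count was 0, was set to 0. The aligner, the counting tool, its use of strand and its treatment of reads matching several copies are not given in the sources used here. The labels name genome builds of another species, whereas all 38 T-box rows had the start position of the RefSeq annotation of ASM336829v1, from which coordinates, chromosomes and RefSeq symbols were taken.

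Counts were tested with edgeR 4.0.16 (R 4.3.3; TMM scaling, quasi-likelihood F test, golden against grey, no covariate) over all genes averaging at least 1 FPKM, and again over all genes averaging at least 10 counts for lower T-box rows, with Benjamini-Hochberg adjustment over each whole table. The SE values were worked back from that test, as the absolute log2 fold change divided by the square root of F. The scripts were tested on simulated data. Same-numbered libraries of the 2 colours deviated together from their group means (correlations 0.674, 0.262 and 0.696 for numbers 1, 2 and 3, against at most 0.0641 for other pairs), so a fit with the replicate number as a block was added. The labels do not say that a number marks 1 fish. Alternatives were DESeq2 1.42.0, limma 3.58.1 on log2(FPKM + 1) and log2(FPKM + 0.1), scaling by library size alone, other filters and leaving out each library. Floors of 3 counts cover counting error only, since reads carried no molecular identifiers.

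Values of every library are given for rows of at least 1 FPKM and for rows that differed over 2-fold with unadjusted p under 0.05, and the other rows by ranges and counts. The members and lists were chosen with earlier results of these data known, and the mural cell list was added after the T-box values were seen. Shares of marker lists were compared by exact two-sided permutation tests. No sequences of these genes were used here.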

Additional observations from a re-analysis of the deposited data

How the results depend on the processing

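No T-box row of at least 1 FPKM passed an adjusted p of 0.05 under any of 15 alternatives. The count of such rows past 2-fold at an unadjusted p under 0.05 was 0. It was 1 with the replicate block, against 5.05% of all genes. With DESeq2 it was 2, the rows of tbx15 on chromosome 9, where 1015 of 26421 genes were past 2-fold. With library size alone it was 1, LOC113082480, which reached 1 FPKM on average only through the grey libraries. It was 0 to 2 with a library left out. No share over all genes is given for library size alone or for left-out libraries, so those counts have no background beside them. Looser filters also let in T-box rows under 1 FPKM, and the count was then 3 among rows with at least 10 counts and 5 without a filter. Of all genes, 3.21% and 3.19% were past 2-fold in these fits. The median log2 fold change of 0.22 over these rows was -0.028 with the replicate block, -0.0062 with library size alone, -0.072 and -0.15 with limma on log2(FPKM + 1) and log2(FPKM + 0.1), and -0.39 to 0.53 with a library left out. The sign of this median is thus not settled.

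The fin field, dorsoventral, corepressor, heart partner and lymphocyte lists had 10, 10, 9, 4 and 9 rows of at least 1 FPKM. Of these, 5 were past 2-fold, against 2.77% of all genes, and 5 to 9 with a library left out, where no share over all genes is given. The agouti and engrailed-1 rows among the 5 reached 1 FPKM on average only through the colour where they were high. DESeq2 gave 3 of the rows of at least 1 FPKM an adjusted p under 0.05, against 0.776% of all genes, where edgeR gave 0. Without a filter, which lets in lower rows, 9 partner rows were past 2-fold, against 3.19% of all genes. Signs turned for LOC113053407 of tbx15 (-0.45 with the block, -0.37 and -0.68 in limma with the larger and the smaller pseudocount, -1.59 to 0.99 with a library left out), for LOC113058510 (-0.68 to 0.062 with a library left out), for tbx1 (-0.13 with library size alone, -0.45 to 0.54 with a library left out), for tbx21 (-0.49 to 0.13 with a library left out) and for LOC113114899 (-0.33 to 0.94 with a library left out). Golden over grey ratios of marker shares with a library left out were 0.573 to 1.24 for epidermis and 0.667 to 6.04 for erythrocytes, and no other list crossed 1. The 3 tbx18 rows were higher in golden under all 13 alternatives run on them. The row on chromosome 23 was at 0.64 and 1.67 in limma, with unadjusted p = 0.054 and 0.060, and the other rows fell under 2-fold on log2(FPKM + 1), where such low values are compressed. Apart from LOC113108532, the block changed no call of a T-box row, and the partner rows it added are named beside their lists. The 2 lower tbx18 rows rest on 12 to 62 counts per golden library, so depth limits their fold changes to bounds and wide errors.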
